A study of Rattus norvegicus with 5 samples.

Results

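Notch receptors, their ligands and the repressors of the Hes and Hey families were read across 5 arrays of BRL-3A cells, an established line derived from rat liver. The 9 genes are Notch1, Notch2, Notch3, Jag1, Dll1, Hes1, Hey1, Hey2 and Heyl, of 15168 genes named on the array. Their 11 probes were found by matching each probe's transcript accession to the rat RefSeq gene table; 7 of the genes had 1 probe, and Notch1 and Hey2 had 2 each. The genes were picked with their values on these arrays already known, so all values below are descriptions.

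The study changed the amount of Tmub1, a membrane protein with a ubiquitin-like domain, in these cells with lentiviruses. Its 5 groups were cells given the Tmub1 overexpression virus, cells given the Tmub1 knockdown virus, cells given the negative control virus of each, and normal cells given no virus. Transduced cells were harvested at 48 h, per the labels, and each group was hybridised to 1 one-colour Agilent array. With 1 array per group there is no spread between replicates, no p-value can be given, and a difference between arrays cannot be set apart from a difference between cultures. All groups share 1 cell line, and the sequences that the viruses carry are not given in the sources used here.

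Notch receptors are single-pass proteins of the cell surface that are activated by ligands of the Jagged and Delta families on a neighbouring cell. Ligand binding lets a protease of the Adam family and then the gamma-secretase complex cut the receptor. The freed intracellular domain then enters the nucleus and joins the DNA-binding protein Rbpj to switch on genes. Hes1, Hey1, Hey2 and Heyl are among the classic direct targets, and they encode basic helix-loop-helix repressors. In the liver the pathway is best known for bile duct formation and for its part in vessel and stellate cells.

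Because Hes1 and the Hey genes are read here as targets, the DNA just before their start sites is shown for 3 of them. Each run is the 250 bases upstream of the annotated start in RefSeq, build GRCr8, written 5′ to 3′ on the gene's own strand. The motif TGGGAA, the core of the Rbpj binding site, is in capitals on either strand (TTCCCA on the other). Hes1 lies at chr11:84213046-84213295 on the minus strand, Hey2 at chr1:28640850-28641099 and Heyl at chr5:140793021-140793270, both on the plus strand.
Hes1: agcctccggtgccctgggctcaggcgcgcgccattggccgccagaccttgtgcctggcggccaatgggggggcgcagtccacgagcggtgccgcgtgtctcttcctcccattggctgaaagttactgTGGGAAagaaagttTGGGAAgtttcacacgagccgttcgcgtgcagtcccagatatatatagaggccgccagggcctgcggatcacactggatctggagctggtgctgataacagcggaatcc
Hey2: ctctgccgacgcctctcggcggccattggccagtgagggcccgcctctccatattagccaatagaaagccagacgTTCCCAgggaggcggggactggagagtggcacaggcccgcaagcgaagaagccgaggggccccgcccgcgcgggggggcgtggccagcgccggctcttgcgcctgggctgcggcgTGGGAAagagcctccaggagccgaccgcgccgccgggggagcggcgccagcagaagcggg
Heyl: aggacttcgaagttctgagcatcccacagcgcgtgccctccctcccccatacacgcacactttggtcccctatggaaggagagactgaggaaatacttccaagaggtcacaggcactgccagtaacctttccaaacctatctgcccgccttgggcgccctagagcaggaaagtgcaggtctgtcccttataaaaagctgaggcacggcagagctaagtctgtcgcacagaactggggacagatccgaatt
Hes1 had 2 matches on its own strand, from 123 to 118 and from 109 to 104 bases before the start. Hey2 also had 2, the first on the opposite strand from 175 to 170 bases before the start and the other on its own strand from 60 to 55. Heyl had 0. Promoters were in the table for 8 of the 9 genes, all but Hey1; Dll1 had 2 matches, and Notch1, Notch2, Notch3 and Jag1 had 0. Of 33469 rat promoters of the same length, 22.1% held at least 1 match and 2.71% held at least 2. The E-box CACGTG was found in 0 of the 8 and in 5.59% of all promoters. The N-box CACNAG, searched on both strands, was found in Notch1, Notch3 and Hes1 and in 37.2% of all promoters. A match is a string of letters and shows no binding.

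A level below is the log2 of a probe's background-subtracted signal minus the 75th percentile of that array, so 0 marks that percentile. Levels of different probes are not compared, since probes differ in how brightly they read. A probe was well above background where the scanner software said so. The median signal was 143.9 with overexpression, 116.4 in its control, 356.2 with knockdown, 159.7 in its control and 329.4 in normal cells, and probes well above background made up 66.9% to 86.5%. The 4 transduced arrays shared 1 scan date and the normal array had another, so scan date and group cannot be told apart in comparisons with normal cells. The level of Tmub1 was 0.44 with overexpression, 0.37 in its control, -1.42 with knockdown, 0.45 in its control and 0.08 in normal cells, so no rise was detected in the array labelled overexpression, and that name below is the label's; whether the probe reads the virus's transcript is not known here. The labels call the cells hepatocytes, and of 8 hepatocyte markers 5 or 6 were well above background on each array. Serpina1, Cyp2e1, Hnf4a and Fgb were so on all 5, Tat on none, and Alb only with overexpression and in the knockdown control. Of 9 stellate cell and fibroblast markers 8 or 9 were well above background, of 7 smooth muscle markers 6 or 7, of 6 endothelial markers 5, of 6 leukocyte markers 3 to 5 and of 5 cholangiocyte markers 2 to 5. The log2 of the summed level of the smooth muscle list ran from 2.95 in the knockdown control to 5.24 in the overexpression control. It was 3.91 under knockdown. That of the endothelial list was 0.53, 2.09 and 1.23 on the same arrays. In the knockdown control and under knockdown, the stellate cell and fibroblast list had 8.57 and 7.99, and the leukocyte list -0.27 and -0.72. The cholangiocyte list had -0.69 and -0.53 there, and the hepatocyte list -1.02 and -0.99. The part of such cell states in the differences below was not tested, and fewer cells of a kind cannot be told apart from less RNA per cell.

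Among the receptors, Notch1 and Notch3 were lowest with the knockdown virus, whereas Notch2 was not. Notch1, a receptor found in many tissues, had a level of -0.10 with overexpression, -0.20 in its control, -1.86 with knockdown, -0.26 in its control and -0.42 in normal cells on probe A_64_P132671. The knockdown array stands alone below the others, which lie close together. The gaps between neighbouring levels among the other 4 were at most 0.16, within scanner error, and the step from normal cells down to knockdown was 1.44. The other Notch1 probe, A_44_P233932, was well above background only in normal cells, at -5.65, and says nothing of the transduced arrays.

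Notch3, the receptor best known from vascular smooth muscle and pericytes, had levels of -0.94 with overexpression, -0.98 in its control, -2.10 with knockdown, -0.72 in its control and -0.39 in normal cells. Again the knockdown array was the lowest, 1.12 below the next one. Notch2, the main receptor in bile duct formation, had levels of -3.57 with overexpression, -3.72 in its control, -1.65 with knockdown and -2.40 in normal cells. Here the knockdown array was the highest of the 4. The spot of Notch2 on the array of the knockdown control was marked as non-uniform by the scanner software, so that array gives no accepted value; the rejected reading was -1.13.

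The 2 ligands did not share a pattern. Jag1, a ligand of the Jagged family, had levels of -2.12 with overexpression, -2.22 in its control, -2.40 with knockdown, -1.19 in its control and -3.81 in normal cells. It was lowest without virus and highest in the knockdown control, while the other 3 transduced arrays differed by no more than scanner error from one to the next. Dll1, a ligand of the Delta family, was well above background only with knockdown, at a level of -5.54 and a signal of 30.5, against signals of 3.18 to 4.85 on the other 4 arrays. On those 4 arrays it had no readable level.

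Among the targets, Hes1 varied least and Hey2 most, each by its main probe. Hes1, the Hes repressor most widely used as a readout of Notch activity, had levels of -0.37 with overexpression, -0.26 in its control, -0.93 with knockdown, -0.31 in its control and -0.01 in normal cells, a span of 1.90-fold. Hey1 had -0.83 with overexpression, -0.39 in its control, -0.19 with knockdown, 0.42 in its control and 0.49 in normal cells, a span of 2.49-fold. Hes1 was lowest with knockdown, but Hey1 was lowest with overexpression, and the knockdown array lay between the 2 negative controls. Heyl was well above background on 3 of 5 arrays, at -5.33 with overexpression, -5.92 with knockdown and -4.65 in normal cells, and was too dim to read in either negative control.

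Hey2, a Hey repressor known from heart and vessel development, was read by both of its probes on all 5 arrays. On probe A_44_P778356 its level was -0.67 with overexpression, -1.42 in its control, -6.41 with knockdown, -0.68 in its control and -2.87 in normal cells. On probe A_64_P140761 it was -3.38 with overexpression, -4.08 in its control, -5.46 with knockdown, -2.96 in its control and -3.99 in normal cells. Both probes were lowest with knockdown, and on both the overexpression array and the knockdown control were the highest pair, in either order. They part over normal cells, which lay 1.44 below the overexpression control on the first probe and 0.10 above it on the other. The level of -6.41 with knockdown is near the bottom of that array's range, where the dimmest probe still well above background stood at -6.72. The first probe spanned 53.5-fold over the arrays and the other 5.65-fold.

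**Figure D1:**
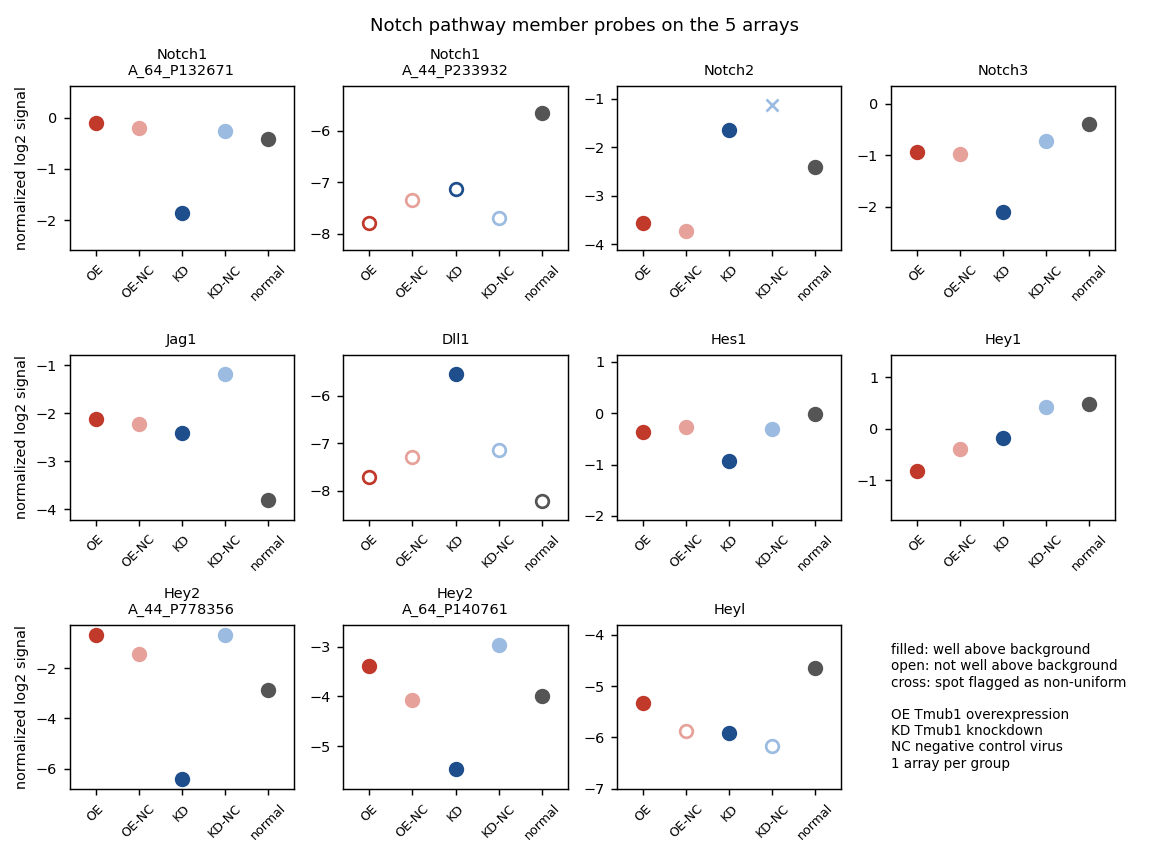
Normalized log2 level (vertical axis, log2 signal minus the 75th percentile of the array) of each of the 11 probes on the 5 arrays (horizontal axis); 1 point is 1 array, open points are not well above background and the cross is the rejected Notch2 spot. The knockdown point is the lowest for Notch1 (A_64_P132671), Notch3, Hes1 and both Hey2 probes, and the highest of the accepted points for Notch2 and Dll1.

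For comparisons, a gene was called higher or lower where 2 arrays differed at least 2.5-fold, the fold that the series names, with the brighter value well above background. A dimmer value under background was raised to the dimmest value well above background on its array, and the fold is then a lower bound. Intervals are 95% limits from the scanner software's own error and cover the reading of the spot alone.

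The overexpression virus was set against its negative control to ask what changes when cells carry the Tmub1 vector. Of the 8 members with a readable difference, 0 were called in either direction, where 2.76% of all genes were called. Hey2 had the largest difference, 0.75 log2 higher (0.35 to 1.16), or 1.69-fold, on its main probe and 0.71 (0.22 to 1.19) on the other. Against the negative control of the other virus, the main probe differed by 0.01 and the other by -0.41. Hey1 went the other way, by -0.44 (-0.84 to -0.04). Notch1, Notch2, Notch3, Jag1 and Hes1 lay between -0.11 and 0.15. Heyl had only a bound, at least 1.06-fold higher, and Dll1 was under background on both arrays. The members' median was 0.09, against 0.00 for all genes.

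The knockdown virus was set against its own control to ask what changes when Tmub1 is reduced. Hey2, Notch1 and Notch3 were lower, and 0 members were higher. That is 3 of the 7 members with a readable difference, where 19.3% of all genes were called, 10.5% as lower and 8.79% as higher. The members' median was -1.21, against -0.21 for all genes. Cell type markers differed between the same arrays in both directions. Of 5 readable hepatocyte markers, Alb was at least 4.66-fold lower and Cyp2e1 3.03-fold higher. Of 8 readable stellate cell and fibroblast markers, Vim was 2.66-fold higher and Pdgfrb 4.19-fold lower. Of 6 endothelial markers, Tek was 3.22-fold higher and Erg at least 6.29-fold lower. Among 6 smooth muscle markers 2 were higher, Tagln at 7.06-fold and Myh11 at 3.49-fold, and 0 were lower. Among 4 readable leukocyte markers 0 were called. Of 3 readable cholangiocyte markers, Krt7 was at least 4.65-fold higher and Krt19 5.99-fold lower. The part of these markers in the members' differences was not tested.

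Hey2 was 53.1-fold lower on its main probe, a log2 difference of -5.73 (-6.40 to -5.06), which was -3.24 with normexp background correction. Its other probe gave 5.65-fold, or -2.50 (-2.98 to -2.02), so the direction was shared and the size was not. Set beside the other negative control, the main probe was 31.7-fold lower and the other 2.60-fold lower; beside normal cells they were 11.7-fold and 2.78-fold lower. Before any scaling, the main probe's signal was 16.6 with knockdown and 428 in its control. After scaling, the knockdown array was below each control on both probes whichever array served as the control. Unscaled, the other probe read 32.1 with knockdown, 88.1 in its control, 32.7 in the overexpression control and 84.6 in normal cells. Its 2.60-fold difference from the overexpression control thus rests on the scaling.

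Notch1 was 3.03-fold lower with knockdown, at -1.60 (-2.00 to -1.20), and Notch3 was 2.59-fold lower, at -1.37 (-1.77 to -0.97). Notch1 passed the threshold against each of the 3 control arrays, at -1.66 beside the other negative control and -1.44 beside normal cells. Notch3 passed it against normal cells, at -1.71, but not against the other negative control, at -1.12. These calls rest on the scaling between arrays, since the knockdown array was the brighter one. Unscaled, Notch1 read 390 with knockdown and 573 in its control, and Notch3 read 332 and 416. With the percentile taken over probes well above background on all arrays, the differences were -1.29 and -1.06 and neither was called. Relative to the median of all genes under each of 6 scalings, Notch1 lay between -1.58 and -0.98 and Notch3 between -1.38 and -0.78.

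Jag1 fell just short of the threshold at 2.32-fold lower, -1.21 (-1.62 to -0.81). It was called at -1.34 with quantile normalization and in the authors' deposited table, whose values nearly equal those of quantile normalization. That value rests on the high knockdown control, since the difference was -0.18 from the other negative control and 1.40 from normal cells. Hes1 and Hey1 were not called. Hes1 was 1.53-fold lower, at -0.61 (-1.01 to -0.21), although its unscaled signal was the greater with knockdown, 745 against 553. Hey1 was 1.52-fold lower, at -0.61 (-1.01 to -0.21), yet 0.20 higher than the other negative control. Dll1 was at least 1.31-fold higher, a bound that does not reach the threshold, and no fold could be read for Heyl.

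Notch2 has no accepted difference from the knockdown control. With the rejected spot put back, it was -0.52. Against the other negative control Notch2 was 4.20-fold higher with knockdown, at 2.07 (1.62 to 2.53), and against normal cells 1.68-fold higher, at 0.75 (0.35 to 1.15). The 3 receptors thus did not lie on the same side of these controls, with Notch2 above them while Notch1 and Notch3 were below. Against the other negative control 3 of 7 members were called, where 31.3% of all genes were.

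**Figure D2:**
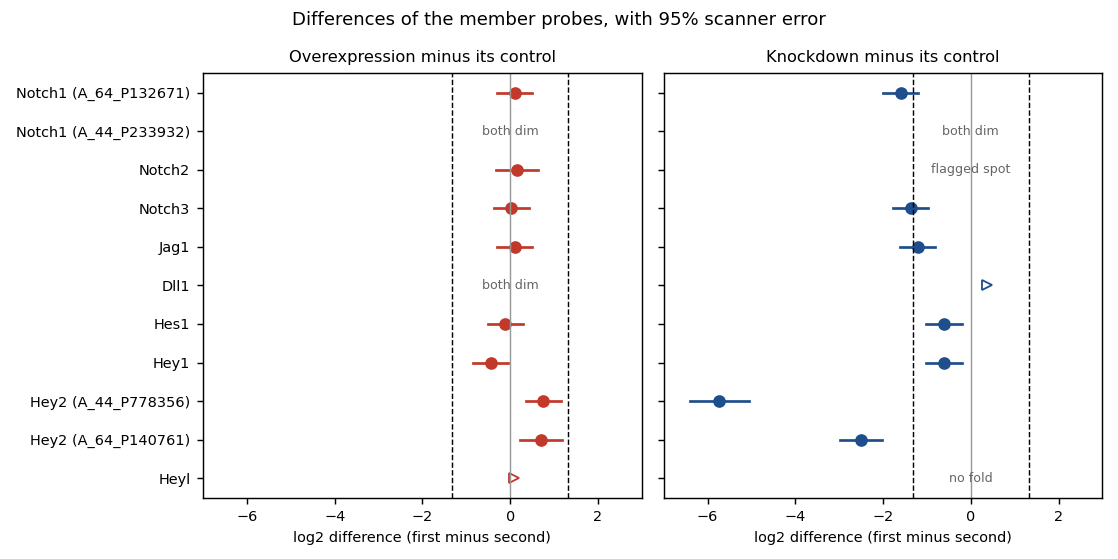
Log2 difference (horizontal axis) of each probe (vertical axis) for overexpression minus its control, left, and knockdown minus its control, right; bars are 95% scanner error, open triangles are lower bounds and dashed lines mark 2.5-fold. On the right, both Hey2 probes and the main probes of Notch1 and Notch3 lie beyond the lower line, while on the left every point lies within the lines.

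**Figure D3:**
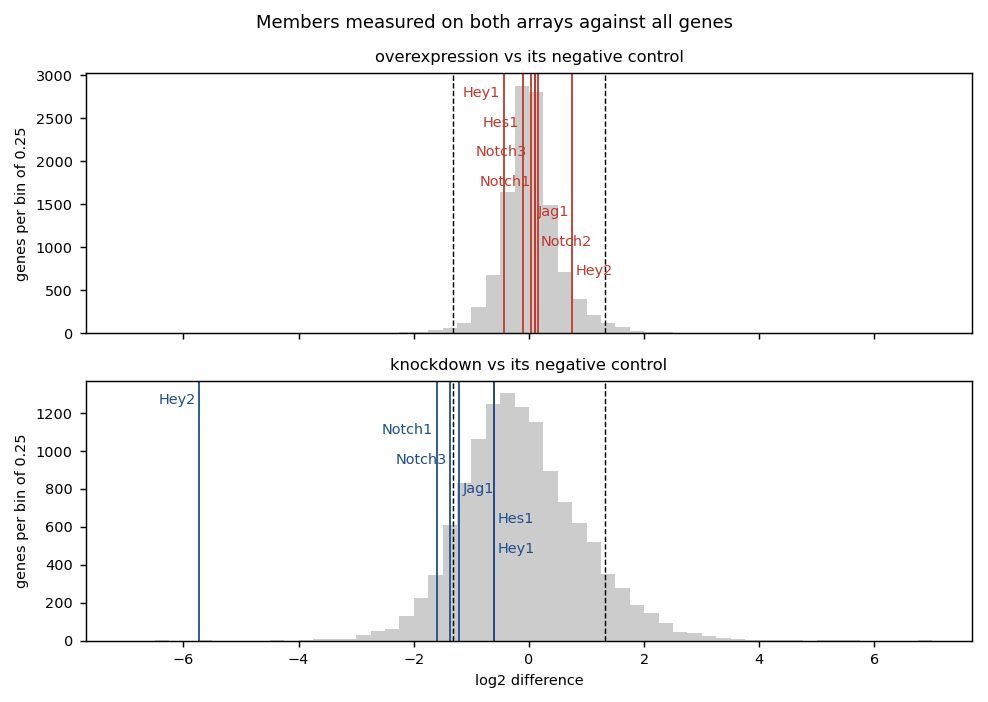
Number of genes (vertical axis) per bin of log2 difference (horizontal axis) for both own-control comparisons. Bars hold all genes with a readable difference, lower bounds included. Coloured lines are the members well above background on both arrays, and dashed lines mark 2.5-fold. With knockdown, the Hey2 line at -5.73 lies far from the bulk of genes, while Notch1 at -1.60 and Notch3 at -1.37 lie on its lower shoulder.

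The arrays without altered Tmub1 show how far the members vary in the controls. Between the negative controls, 0 of 6 readable members were called, where 8.76% of all genes were. The widest gaps were in Jag1, 1.03 higher in the knockdown control, in Hey1, 0.80 higher, and in Hey2, 0.74 and 1.12 higher on its 2 probes. Each of these 3 genes was higher in the control of the knockdown virus than in that of the overexpression virus. Notch1, Notch3 and Hes1 differed by -0.07, 0.25 and -0.05.

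Against normal cells, Jag1 lay on the same side on every transduced array, whereas Hey2 did not. Jag1 was higher on all 4: by 3.21-fold with overexpression, 3.01-fold in its control, 2.65-fold with knockdown and 6.14-fold in its control. Hey2 was higher by its main probe on 3 of them, by 4.59-fold with overexpression, 2.72-fold in its control and 4.55-fold in the knockdown control. Its other probe passed the threshold on none of these, at 0.61, -0.10 and 1.02. With knockdown, Hey2 was lower than in normal cells, 11.7-fold on the main probe and 2.78-fold on the other. With normexp background correction, Jag1 was not called against normal cells for overexpression or for knockdown. The 4 comparisons share the normal array, whose scan date differed from that of the transduced arrays.

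In counts, overexpression against normal cells gave 2 of 8 members called, where 17.2% of all genes were, and the knockdown control 2 of 7, where 17.1% were. The overexpression control gave 3 of 8, where 18.7% were, since Notch2 was 2.50-fold lower there, right at the threshold. Knockdown against normal cells gave 4 of 9, with Jag1 higher and Notch1, Notch3 and Hey2 lower, where 30.5% of all genes were called. Hey1 with overexpression lay just outside, 2.49-fold lower than in normal cells. Heyl was lower than in normal cells by 1.59-fold with overexpression, a direction that turned to 0.13 higher with quantile normalization, and by 2.41-fold with knockdown, and by at least 1.69-fold and 2.41-fold in the overexpression and knockdown controls.

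**Figure D4:**
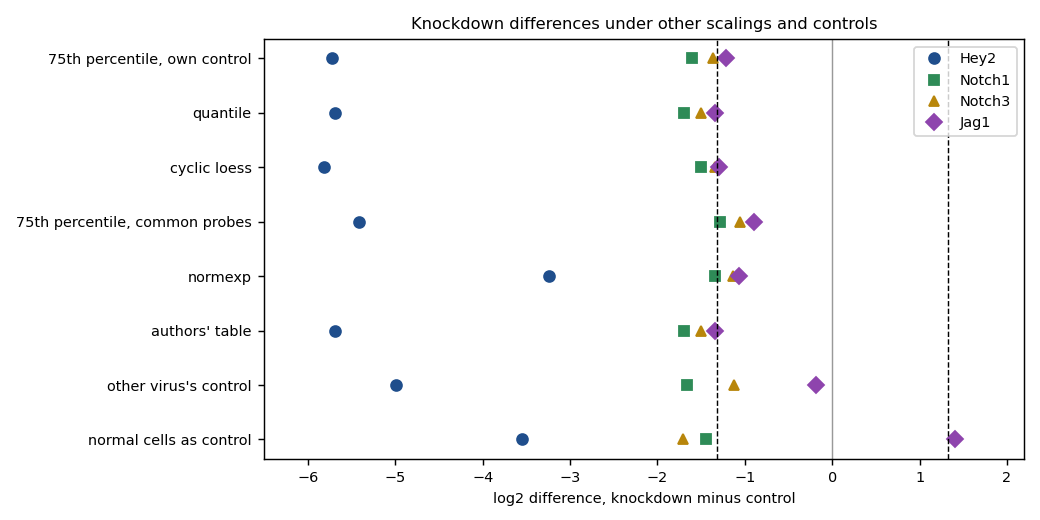
Log2 difference (horizontal axis) of Hey2, Notch1, Notch3 and Jag1 with knockdown, under each scaling and against each control (vertical axis); dashed lines mark 2.5-fold. Hey2 stays beyond the lower line in every row, Notch1 and Notch3 cross it with some scalings, and Jag1 moves from -1.21 to 1.40 with the choice of control.

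The wider pathway was read from 5 lists of 70 further genes, of which 54 were matched to a probe by accession. Of 30367 probes 12362 had no single matching gene, so an unmatched gene may still have a probe. With knockdown, 5 were higher and 5 lower of 51 readable, or 19.6%, close to the share over all genes. Their median was 0.08. Of the 10 called genes, 6 were also called in the same direction against both the other negative control and normal cells: Adam17, Poglut1, Crebbp, Snw1, Snai2 and Snai1. Psenen at -0.42 and Bcl6 at -0.57 were not called against normal cells, Id1 was not called against the other negative control, and Tle3 was called against neither. The called genes lay in every list but that of the other receptors and ligands, where 0 of 5 were called and all 5 differences were below 0, from -0.85 for Dll3 to -0.14 for Notch4.

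In the activation machinery 2 of 14 genes were higher and 1 lower. Adam17, a protease of the Adam family, was 3.71-fold higher and Poglut1, which adds glucose to the receptor's outer repeats, 3.79-fold. Adam10, of the same protease family, was listed but not matched to a probe. Psenen, a gamma-secretase subunit, was 2.59-fold lower, and the subunit Ncstn, at -1.26, was not called. Of 11 genes of the nuclear complex, the coactivators Crebbp and Snw1 were 2.68-fold and 2.89-fold higher and the corepressor Tle3 3.22-fold lower. The Tle3 call rests on a high knockdown control, since the difference was -0.04 from the other negative control and -0.84 from normal cells. Rbpj itself had a difference of 0.71 and was not called.

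Among 9 readable inhibitors and turnover genes, Bcl6, a repressor that can block Notch targets, was 4.04-fold lower, and Nrarp, a feedback inhibitor induced by Notch, had a difference of 0.22. Of 12 readable other Hes and target genes, Snai2 was 4.56-fold higher, while Snai1 was 4.0-fold and Id1 2.83-fold lower. The related transcription factors Snai1 and Snai2 thus moved in opposite directions between these arrays. Myc, at 1.24, was not called, and Hes3 and Hes5 were under background on both arrays.

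With overexpression, 2 of 50 readable pathway genes were called, or 4.0%, where 2.76% of all genes were, and both were lower. They are Dlk1, a Delta-like protein of progenitor cells, at 3.62-fold, and its relative Dlk2, at 2.60-fold. Dlk1 had levels of -2.11 with overexpression, -0.25 in its control, -3.20 with knockdown, -2.71 in its control and -2.00 in normal cells. For Dlk1 the overexpression control is the high array. Dlk2 had -2.62, -1.24, -3.52, -2.94 and -1.08 in the same order, highest in normal cells, from which overexpression was 2.89-fold lower. Both differences turned against the knockdown control, to 0.60 for Dlk1 and 0.32 for Dlk2.

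**Figure D5:**
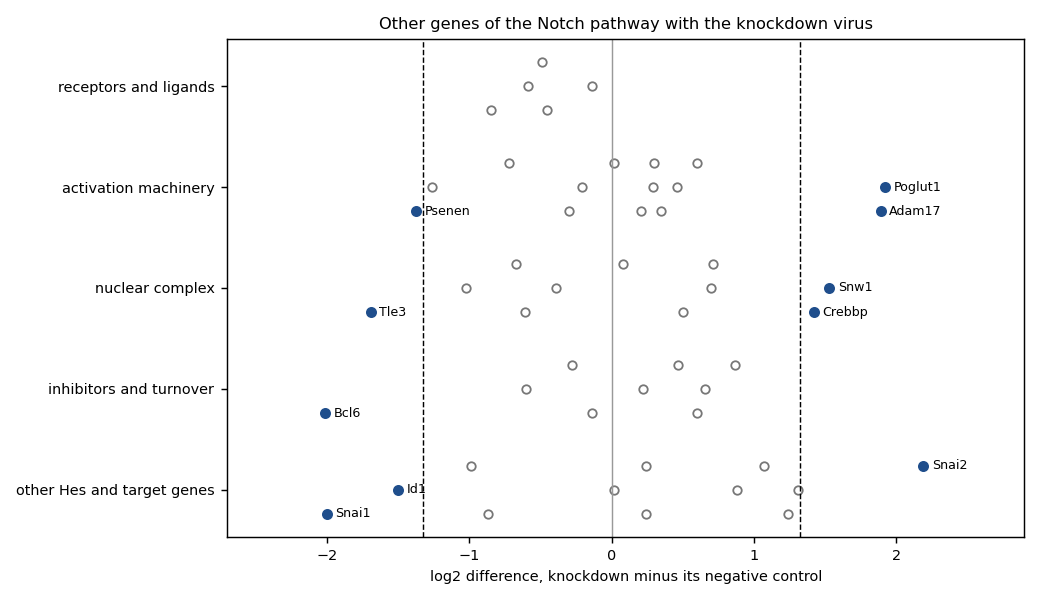
Log2 difference with knockdown against its control (horizontal axis) of the readable pathway genes in 5 lists (vertical axis, points spread only for legibility); filled points are called and dashed lines mark 2.5-fold. The 5 higher and 5 lower genes lie on both sides of 0 in 3 of the 4 lists that hold any.

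For the 4 members read on all 5 arrays with accepted values that spanned at least 2.5-fold, the 3 genes with the most similar pattern were sought among 10633 genes. Likeness was the root mean square difference over the 5 arrays after each gene was centred on its own mean, in log2 units. Notch1 was matched within 0.03 by Rps10, a ribosomal protein, within 0.05 by Sft2d3 and within 0.06 by Nmb, the peptide neuromedin B. Notch3 was matched by Fgf11 and Efcab10, both within 0.05, and by Inpp5d, a lipid phosphatase of blood cells, within 0.06. The nearest to Jag1 were Mpzl2 at 0.12, the transcription factor Klf5 at 0.16 and the potassium channel Kcnk5 at 0.17. Hey2, by its main probe, had no match as near. Its closest were Slc25a42, a mitochondrial carrier, at 0.68, Alpl, an alkaline phosphatase, at 0.77 and Hoxd10 at 0.79. The measure is not scaled for span, which was 53.5-fold for Hey2, 6.14-fold for Jag1, 3.39-fold for Notch1 and 3.26-fold for Notch3. The part of span in these distances was not tested. None of these 12 genes belongs to the pathway lists, which hold only 54 of the 15168 named genes.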

How the data were processed

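BRL-3A cells in 5 groups were measured with 1 Agilent one-colour array each, from 1 µg of RNA per the labels. The deposited scanner files hold processed intensity values, background-subtracted and not scaled between arrays, with spot flags and the scanner's error. They were made with Agilent Feature Extraction 11.0.1.1 per the file headers; the submitters' processing notes name 9.1. The deposited table holds log2 values made by a normalization not named in those notes, and it served as an alternative. For Notch1, Notch3, Jag1, Hes1, Hey1 and Hey2 against the own controls, its rounded differences equalled those of quantile normalization. These alternatives are therefore not separate checks. The array was designed on rn4, so coordinates come only from the RefSeq table (GRCr8).

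Control spots and flagged spots were left out, spots of a probe were averaged, and the 75th percentile over 30367 probes was subtracted from the log2 signal. A multi-spot probe counted as well above background where all its accepted spots did. Where probes disagreed in brightness, the brightest on average stood for the gene. A call needed a 2.5-fold difference. The number of arrays, 1 per group, limits the precision. The members, the pathway and marker lists, the comparisons and the alternatives were chosen with earlier results of these data known.

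Named genes were the 9 members, up to 6 called genes per pathway list and own-control comparison, and the 3 nearest genes by pattern; pathway genes named with an uncalled difference were added after their values were seen. An item of the pathway lists is not reported here and is left out of their counts. Alternatives were quantile and cyclic loess normalization (limma 3.58.1 in R 4.3.3), the percentile over common probes, normexp with an offset of 50 on the median pixel signal, the authors' table, other filters, probes, thresholds and control arrays. Keeping the rejected Notch2 spot was added after seeing the data.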

Additional observations from a re-analysis of the deposited data

How the results depend on the processing

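With 1 array per group, calls have no replicate check, and scanner error covers the spot alone. No paired analysis was possible because every group holds 1 array with the same replicate number. Over 65 single-gene results and 569 alternatives, 479 values stayed within the 95% scanner interval of the reported value, 87 moved outside it and 3 called values changed sign: Dlk1 (0.60) and Dlk2 (0.32) with overexpression against the other virus's control, and Hey2 in the overexpression control against normal cells on the other probe (-0.10). Of values that were not called, 28 also changed sign, 7 of them with another control array, among which Jag1 with knockdown went to 1.40 against normal cells and Hey1 to 0.20 against the other negative control.

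With knockdown, Hey2 was called under every setting, at -5.82 to -5.42 under the scalings other than normexp and -3.24 with normexp. Notch1 was not called with common probes (-1.29), with the mean of its probes (-0.53) or at 4-fold, and Notch3 with common probes (-1.06), with normexp (-1.14) or at 4-fold. The median of all genes with knockdown was -0.21, from -0.36 with normexp to 0.11 with common probes, and 45.7% of called genes were higher, against 56.9% with cyclic loess and 71.1% with common probes; with overexpression the share was 62.9%, against 51.6% with quantile normalization and 48.1% with normexp.

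Counts that moved by over 1.5 times are given next. With knockdown, 1 member was called with common probes and 1 at 4-fold, in place of 3; smaller moves include 4 with quantile normalization, in the authors' table and at 2-fold, where Jag1 was added. With overexpression, 2 were called when normal cells served as control. Between the negative controls, 1 was called at 2-fold (Jag1) and 1 with the rejected Notch2 spot kept (2.59 log2 higher in the knockdown control). Against normal cells, overexpression gave 4 with common probes, 4 at 2-fold, 1 with normexp and 1 at 4-fold; knockdown gave 2 with normexp and 1 at 4-fold; the overexpression control gave 1 with normexp and 0 at 4-fold. Of pathway genes, overexpression gave 1 with normexp, 0 at 4-fold, 1 against the other virus's control and 5 against normal cells, and knockdown gave 3 at 4-fold, 20 of 51 against the other virus's control and 16 of 53 against normal cells, in place of 10, while the share over all genes went from 19.3% to 31.3% and 30.5%.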
